A study of Mus musculus with 6 samples.

Results

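Pgr, the progesterone receptor gene, Nr3c1, the glucocorticoid receptor gene, and 7 genes known to respond to one or both receptors (Zbtb16, Fkbp5, Il13ra2, Tsc22d3, Sgk1, Hif3a and Lrp2) were followed in the oviduct of early mouse pregnancy. They were taken by gene symbol and are 9 of the 55483 features measured. They were chosen by their known response to these receptors and selected on their d/d against f/f difference in these same FPKM values, so their differences are described and carry no test. RNA of the whole oviduct was sequenced in 6 libraries, 3 labelled Mettl3 f/f and 3 labelled Mettl3 d/d, from pregnant females on gestational day 3 that were 6 to 8 weeks old when paired with fertile males. Libraries are called f/f 1 to 3 and d/d 1 to 3 after their replicate numbers. Mettl3 encodes the catalytic subunit of the enzyme complex that writes N6-methyladenosine on RNA. By convention, f/f marks 2 alleles with loxP sites around part of the gene and d/d the alleles after Cre has cut that part out. Which Cre was used, which exons were removed and whether animals were pooled is not stated in the labels used here.

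Both receptors are transcription factors that wait in complexes of heat shock protein 90 and its co-chaperones until they bind hormone, then pair up and bind the same palindromic DNA element. A gene can therefore answer to progesterone, to glucocorticoid or to both, depending on which receptor and which hormone a cell holds. In the oviduct, progesterone from the corpora lutea rises after ovulation while the embryo travels toward the uterus, and it acts on epithelium, stroma and muscle. Zbtb16, Fkbp5, Tsc22d3 and Sgk1 are among the genes most often used to read out activity of these receptors.

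Promoter sequence is shown for members that bear, or lack, the palindrome in the window just upstream of a start site. The windows run from 250 bases before to 50 bases after a RefSeq start (GRCm38.p6), and 7 of the 9 genes had at least 1 window, with 14 windows in all. The element searched was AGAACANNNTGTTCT, on both strands, where N is any base. It was in 3 of 32851 windows (0.00913%), and 1 of these 3 was 1 of the 6 windows of Sgk1, the kinase gene, at position -189 from the start, in the window chr10:21993640-21993939 on the plus strand. Its 6-base arm AGAACA (or TGTTCT on the other strand), which overlaps every full match, was in 19.0% of windows and in windows of Sgk1 and Tsc22d3. Of the 3 Tsc22d3 windows, the one at chrX:140600473-140600772 on the minus strand had it at position -185. The Fkbp5 window, chr17:28486100-28486399 on the minus strand, had neither. The sequences are written 5′ to 3′, with the full palindrome in capitals for Sgk1 and the 6-base arm in capitals for Tsc22d3.
Sgk1: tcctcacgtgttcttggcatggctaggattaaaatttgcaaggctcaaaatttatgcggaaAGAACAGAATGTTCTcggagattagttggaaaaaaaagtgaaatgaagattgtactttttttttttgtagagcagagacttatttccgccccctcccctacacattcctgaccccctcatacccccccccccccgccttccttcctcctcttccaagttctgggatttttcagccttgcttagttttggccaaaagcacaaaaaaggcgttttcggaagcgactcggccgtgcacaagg
Tsc22d3: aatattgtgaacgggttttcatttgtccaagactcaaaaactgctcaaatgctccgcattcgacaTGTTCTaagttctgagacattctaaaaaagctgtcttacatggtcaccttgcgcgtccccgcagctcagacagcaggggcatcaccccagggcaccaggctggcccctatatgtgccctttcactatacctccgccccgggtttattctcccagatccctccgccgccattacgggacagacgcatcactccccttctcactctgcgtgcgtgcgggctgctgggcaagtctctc
Fkbp5: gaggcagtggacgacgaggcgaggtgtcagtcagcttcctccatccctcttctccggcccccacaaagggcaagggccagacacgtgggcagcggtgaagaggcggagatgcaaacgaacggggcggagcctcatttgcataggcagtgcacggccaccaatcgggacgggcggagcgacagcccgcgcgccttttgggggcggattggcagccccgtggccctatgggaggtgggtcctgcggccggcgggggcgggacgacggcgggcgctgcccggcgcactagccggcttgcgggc
These matches describe letters in short windows and locate no receptor.

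The values are FPKM, fragments scaled to transcript length and to the mapped fragments of the library, so levels of different genes can be set side by side. The steps between low values put the depth at 16700000 to 17900000 fragments per library, and 21085 to 22211 features per library were above 0. Mitochondrially encoded features held 3.61 to 5.70% of all FPKM in f/f against 6.50 to 9.70% in d/d. Mettl3 itself was at 11.8, 12.1 and 13.2 FPKM in f/f 1 to 3 against 19.8, 20.3 and 24.5 in d/d 1 to 3. It was 1.74-fold higher in the libraries labelled d/d, with means of 12.4 ± 0.736 and 21.5 ± 2.59 (SD, n = 3 each; limma adjusted p = 0.0145; exact permutation p = 0.1, two-sided, the smallest that 3 against 3 allows). The call was lost without f/f 2 (limma adjusted p = 0.0688). Its end overlaps that of Tox4, which was at 15.1 to 17.5 FPKM over the 6 libraries. One level per gene does not reveal a missing exon, so the genotypes are taken from the labels, and each direction given here rests on them. Nothing in the labels names the replicates as separate animals, and p-values therefore cover the spread of these libraries alone, which may be technical.

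Transcripts of the receptors themselves overlapped between the genotypes. Pgr (ENSMUSG00000031870; chromosome 9, 8899833 to 8968611 on the plus strand of GRCm38) was at 35.3, 43.3 and 44.4 FPKM in f/f 1 to 3 against 34.5, 45.6 and 40.3 in d/d 1 to 3. The groups overlapped over nearly their whole range, with the lowest value of each in replicate 1. Means were 40.99 ± 4.94 and 40.2 ± 5.57 FPKM (SD, n = 3 each), and the log2 change, d/d minus f/f on log2(FPKM + 1), was -0.03 (SE 0.14; 95% interval -0.37 to 0.31). Nr3c1 (ENSMUSG00000024431; chromosome 18, 39410545 to 39519421 on the minus strand) was at 24.6, 21.4 and 23.9 FPKM in f/f against 24.9, 26.3 and 22.8 in d/d. These groups overlapped too, and the log2 change was 0.08 (SE 0.11; 95% interval -0.17 to 0.33). Each interval bounds the change of the receptor transcript and says nothing of receptor protein or of hormone.

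Of the 7 responsive genes, 6 had every d/d library under every f/f library, and Sgk1 overlapped. The same 6 were past the threshold of the fit over all features (limma, Benjamini-Hochberg adjusted p under 0.05) and fell, and 0 rose. Over the 15438 features tested, 4.97% fell by that rule, 6.04% rose, 17.4% were lower in d/d without overlap, and 35.6% did not overlap in either direction. The 9 genes were picked with this contrast known, so nothing is read from their count. In RNA of a whole organ, fewer cells of a type and less RNA per cell cannot be told apart.

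**Figure D1:**
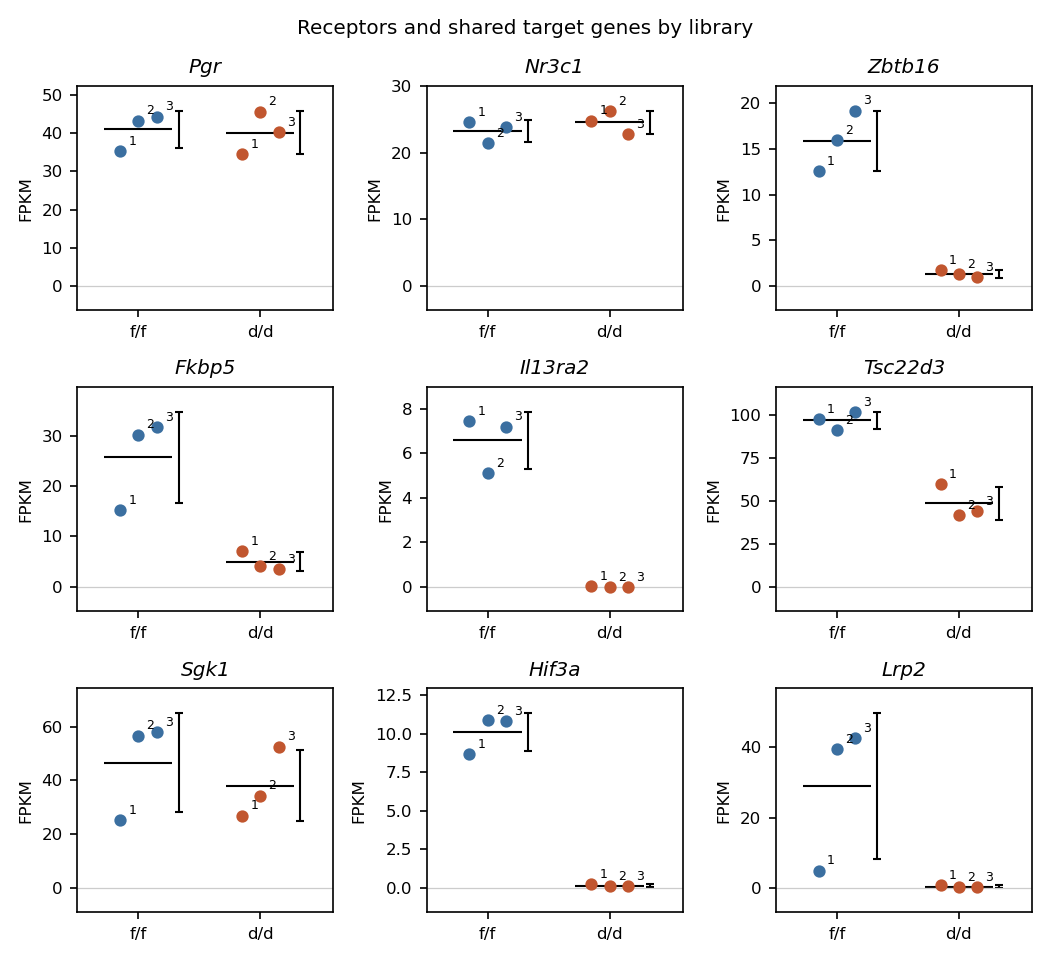
FPKM of the 9 genes in each library, f/f in blue and d/d in orange, with replicate numbers beside the points. Lines are group means and bars ± 1 SD (n = 3), both left out for Il13ra2 in d/d, which is listed at 0 in 2 libraries. Pgr, Nr3c1 and Sgk1 overlap between the groups, and the other 6 genes are lower in every d/d library.

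Among the transcription factors, Zbtb16 (ENSMUSG00000066687; chromosome 9, 48654297 to 48836222, minus strand) encodes the zinc finger protein PLZF, a progesterone-induced regulator in the stroma of the reproductive tract that glucocorticoids also induce. It was at 12.6, 15.9 and 19.2 FPKM in f/f 1 to 3 against 1.74, 1.31 and 0.925 in d/d 1 to 3. The lowest f/f library lay well above the highest d/d library. Means were 15.9 ± 3.30 and 1.32 ± 0.405 FPKM (SD, n = 3 each), 12.04-fold lower in d/d, and the log2 change was -2.86 (SE 0.21; 95% interval -3.35 to -2.37). At its longest transcript the d/d values stand for about 146, 106 and 76.1 fragments, so these low levels rest on many reads.

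Hif3a (ENSMUSG00000004328; chromosome 7, 17031507 to 17062427, minus strand) encodes a subunit of the hypoxia-inducible factor family and responds to glucocorticoids in several tissues. It was at 8.68, 10.9 and 10.8 FPKM in f/f 1 to 3 against 0.263, 0.0924 and 0.106 in d/d 1 to 3. The f/f libraries lay close together and the d/d libraries were near the lower end of what was measured. At its longest transcript the d/d values stand for about 28, 9.48 and 11.01 fragments, and for fewer at a shorter one. Means were 10.1 ± 1.25 and 0.154 ± 0.0948 FPKM (SD, n = 3 each), a 65.9-fold lower level that became 102-fold without d/d 1, the highest of its group. The log2 change was -3.27 (SE 0.18; 95% interval -3.69 to -2.84).

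Fkbp5 (ENSMUSG00000024222; chromosome 17, 28399094 to 28517527, minus strand) encodes a co-chaperone that lowers hormone binding by steroid receptors and is itself induced by them, which makes it a feedback gene. It was at 15.2, 30.2 and 31.7 FPKM in f/f 1 to 3 against 7.14, 4.18 and 3.57 in d/d 1 to 3. Library f/f 1 was the lowest of its group and d/d 1 the highest of its own, and the groups still did not overlap. Means were 25.7 ± 9.10 and 4.96 ± 1.91 FPKM (SD, n = 3 each), 5.18-fold lower in d/d, with a log2 change of -2.14 (SE 0.33; 95% interval -2.93 to -1.35).

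Tsc22d3 (ENSMUSG00000031431; chromosome X, 140539528 to 140600659, minus strand) encodes GILZ, a leucine zipper protein that carries part of the anti-inflammatory action of glucocorticoids. It had the highest mean FPKM of the 9 genes in both groups, at 97.3, 91.0 and 101 FPKM in f/f 1 to 3 against 59.7, 41.8 and 43.8 in d/d 1 to 3. The f/f libraries differed little, and d/d 1 was again the highest of its group. Means were 96.5 ± 5.19 and 48.4 ± 9.83 FPKM (SD, n = 3 each), 1.99-fold lower in d/d, and the log2 change was -0.998 (SE 0.15; 95% interval -1.35 to -0.64).

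Sgk1 (ENSMUSG00000019970; chromosome 10, 21882184 to 21999903, plus strand) encodes the serum- and glucocorticoid-regulated kinase, which promotes sodium uptake through epithelial channels. It was at 25.2, 56.6 and 58.1 FPKM in f/f 1 to 3 against 26.9, 34.4 and 52.6 in d/d 1 to 3. Library f/f 1 was below every d/d library, and d/d 3 came close to the higher f/f libraries. Means were 46.6 ± 18.6 and 37.9 ± 13.2 FPKM (SD, n = 3 each), 1.23-fold lower in d/d, and the log2 change was -0.25 (SE 0.37; 95% interval -1.14 to 0.63). The interval includes no change and a fall as large as that of Tsc22d3, so these 6 libraries do not separate those cases.

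Il13ra2 (ENSMUSG00000031289; chromosome X, 147383476 to 147429192, minus strand) encodes the decoy receptor that binds interleukin 13 without signalling as its partner Il13ra1 does. It was at 7.47, 5.12 and 7.21 FPKM in f/f 1 to 3, a mean of 6.60 ± 1.29 (SD, n = 3). It was at 0.0456 in d/d 1 and was listed at 0 in d/d 2 and d/d 3. The d/d 1 value is close to what 1 fragment on its shorter transcript would give (0.0455), against about 269, 184 and 249 fragments on its longer one in f/f 1 to 3. No fold is given, since a listed 0 can be a failed estimate, and the log2 change on the log2(FPKM + 1) scale was -2.89 (SE 0.21; 95% interval -3.38 to -2.40).

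Lrp2 (ENSMUSG00000027070; chromosome 2, 69424340 to 69586065, minus strand) encodes megalin, a large endocytic receptor of absorptive epithelia that takes up carrier proteins, lipoproteins and clusterin. It was at 4.86, 39.6 and 42.6 FPKM in f/f 1 to 3 against 0.747, 0.106 and 0.0893 in d/d 1 to 3. Library f/f 1 stood far below the other f/f libraries, and d/d 1 above the other d/d libraries. Means were 29.0 ± 20.97 and 0.314 ± 0.375 FPKM (SD, n = 3 each), 92.3-fold lower in d/d, but the ratio was 296-fold without d/d 1 and 131-fold without f/f 1. The log2 change was -4.09 (SE 0.76; 95% interval -5.89 to -2.29), the widest interval of the 9. Il13ra2, Hif3a and Lrp2 had d/d means under 1 FPKM and passed the filter on low values through their f/f level. Features that overlap Fkbp5 (4) and Hif3a (1) were at 0.233 FPKM or less in each library.

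Leaving out 1 library at a time, leaving out f/f 1 and d/d 1 together, or refitting with other scalings or pseudocounts, left the log2 change of each of the 6 non-overlapping genes negative. Because their groups do not overlap, omissions and pseudocounts could not have turned that sign, so only the sizes are read. Fkbp5 ranged from -2.71, without f/f 1 and d/d 1, to -1.96, Tsc22d3 from -1.16 to -0.90 and Lrp2 from -5.98 to -3.59. Sgk1 ranged from -0.64 without f/f 1 to -0.04 without d/d 1. The number of the 9 past the threshold was 3 without f/f 2 and 3 without f/f 3, 4 without d/d 2, 4 without d/d 3, 5 without d/d 1 and 6 without f/f 1. In the same order, 308, 525, 635, 652, 885 and 1795 of all features passed, against 1701 in the reported fit. Calls over all features thus fell too in each fit where those of the 9 genes fell. The sizes of the drops were not compared.

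**Figure D2:**
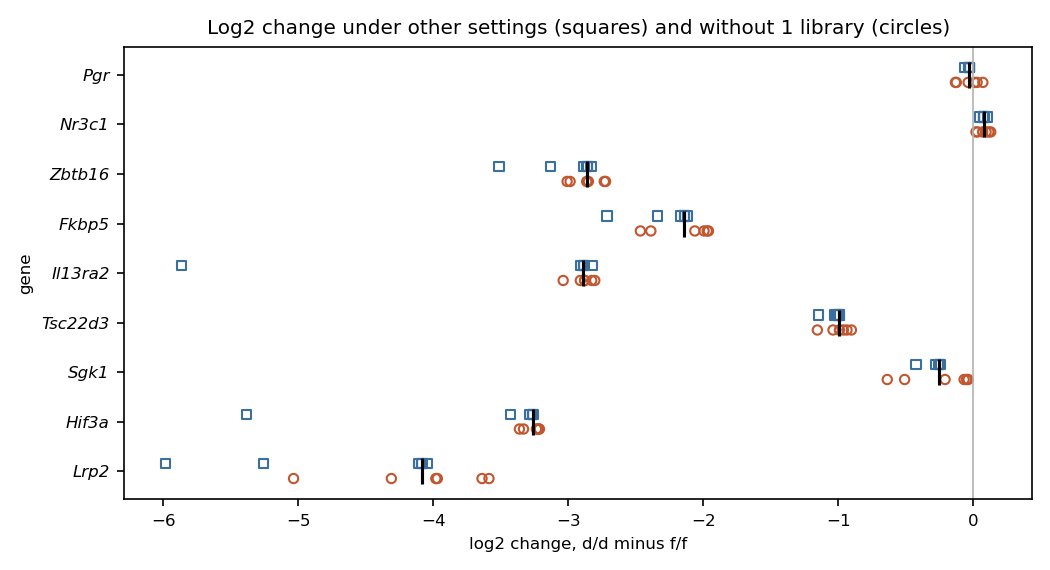
Log2 change, d/d minus f/f, of the 9 genes: black ticks are the values of the text, squares other processing settings and circles the fits that leave out 1 library. Pgr and Nr3c1 lie near 0 throughout, Sgk1 lies between -0.64 and -0.04, and the low-level genes Il13ra2, Hif3a and Lrp2 reach their most negative values with a pseudocount of 0.1.

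Library f/f 1 was the lowest f/f library for Lrp2, Fkbp5, Sgk1, Zbtb16, Hif3a and Pgr, but not for Il13ra2, Tsc22d3 or Nr3c1. Genes of other groups set it apart as well. Hoxa9 and Hoxa10, which mark position along the reproductive tract, were at 20.02 and 3.48 FPKM in f/f 1 against 73.6 and 26.5 in f/f 2 and 64.6 and 25.1 in f/f 3. In d/d 1 to 3 Hoxa9 was at 22.7, 23.2 and 26.5 and Hoxa10 at 4.24, 9.47 and 12.4, so both were lower in f/f 1 than in any d/d library. The summed FPKM of 6 smooth muscle markers, led by Acta2 and Tagln, was 2109 in f/f 1, 4978 to 5098 in f/f 2 and f/f 3, and 2635 to 4303 in d/d, with Des called lower (2.57-fold; limma adjusted p = 0.0385). The sum of 6 multiciliated cell markers, led by Tppp3 and Foxj1, was 399 in f/f 1, 193 to 232 in the other f/f libraries and 56.0 to 263 in d/d. The part of these differences in the levels of the 9 genes was not tested.

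Cell type markers gave these background levels for the 2 groups. Secretory epithelium (6 markers, led by Ovgp1, the oviductal glycoprotein) summed to 4796 to 6300 FPKM in f/f against 3183 to 5627 in d/d, with Epcam and Cdh1 called higher and Krt18 lower. Stroma (6 markers, led by Dcn and Col3a1) summed to 2832 to 3209 in f/f against 2683 to 4102 in d/d, with Lum called higher and Pdgfra lower (1.87-fold; limma adjusted p = 0.0206). Macrophage markers, led by Lyz2 and C1qb, rose in 6 of 6 cases, from a sum of 298 to 364 in f/f to 816 to 1083 in d/d. Endothelial markers, led by Pecam1 and Emcn, overlapped at 115 to 145 and 121 to 163. Neutrophil markers, led by S100a8 and S100a9, summed to 82.6 in f/f 1, 3.28 to 3.86 in the other f/f libraries and 24.9 to 84.7 in d/d, with Csf3r called higher (3.79-fold; limma adjusted p = 0.0459) and Mpo at 0 throughout. Lymphocyte markers, led by Cd79b and Cd3g, were at 7.61 to 9.63 in f/f against 12.5 to 21.6 in d/d, with Cd79b called higher (2.65-fold; limma adjusted p = 0.0298). Mesothelial markers, led by Wt1 and Msln, were at 66.4 to 142 and 59.2 to 90.1, and erythroid ones, led by Hbb-bs and Hba-a1, at 73.5 to 110 and 38.2 to 82.5. Ovarian markers, led by Inha and Star, were at 6.44 to 37.7 in f/f, highest in f/f 3, and at 6.34 to 7.74 in d/d, with Fshr at 0 throughout. In f/f 3 Cyp11a1 was at 13.5 and Hsd3b1 at 11.2 FPKM, against 0.725 or less and 0.321 or less in every other library. Star was also highest in f/f 3 (7.62), and Inha was not (3.62). Adipocyte markers, led by Fabp4 and Adipoq, were at 0.942 to 22.1 and 0.292 to 3.30. How far cell makeup enters the levels of the 9 genes was not tested.

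Few other genes of the receptor machinery passed the threshold. Over all features 4.97% fell and 6.04% rose, and lists this short would hold few calls at those shares. Nothing is therefore read from the counts of receptor, chaperone, coregulator and metabolism genes. Of 5 tested genes for other steroid receptors and membrane components, 0 rose and 0 fell (median log2 change -0.05, against -0.01 for all features tested). The oestrogen receptor gene Esr1 was at 139 ± 1.89 FPKM in f/f against 154 ± 15.01 in d/d (SD, n = 3 each). Nr3c2, the mineralocorticoid receptor gene whose protein also binds glucocorticoid, was at 3.32, 3.23 and 3.61 FPKM in f/f against 4.62, 3.04 and 3.45 in d/d. Esr2 was at 0.143 or less in each library and was not tested. Pgrmc1, a membrane progesterone receptor component, was at 113 ± 5.41 and 95.5 ± 7.30 FPKM (limma adjusted p = 0.168). Its relative Pgrmc2 was at 44.2, 84.6 and 84.3 FPKM in f/f against 57.6, 39.5 and 54.5 in d/d (limma adjusted p = 0.335), and it was called lower when f/f 1 was left out (limma adjusted p = 0.0482). At an unadjusted limma p under 0.05, Pgrmc1 was the 1 gene of these 5, against 4562 of the 15438 features tested.

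Of 14 chaperones and co-chaperones of the receptor complex, 1 rose (7.14%, against 6.04% of all features) and 0 fell. The gene that rose was Hspa8, the constitutive chaperone of its heat shock family, from 19.3 ± 0.802 to 32.6 ± 3.87 FPKM (SD, n = 3 each; 1.69-fold; limma adjusted p = 0.0142). That call was lost without f/f 2 or without f/f 3. Hsp90ab1, which encodes the chaperone that holds the receptors ready, was at 604 ± 53.7 and 671 ± 21.5 FPKM, and Bag1 at 132 ± 6.88 and 128 ± 13.2. Fkbp4, the co-chaperone that acts opposite to Fkbp5 and is needed for progesterone response in the uterus, was at 123 ± 14.4 and 141 ± 2.93 FPKM (limma adjusted p = 0.275). Of 11 coactivators and corepressors 0 passed the limma threshold and 1 had an unadjusted p under 0.05 (median log2 change -0.14), with the corepressor gene Ncor1 at 77.3 ± 11.7 and 68.9 ± 3.30 FPKM.

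Of 6 tested genes for local steroid metabolism and export, 0 passed the limma threshold and 0 had an unadjusted p under 0.05 (median log2 change -0.26). H6pd, which supplies the cofactor of Hsd11b1, was at 28.5 ± 5.18 and 34.7 ± 8.52 FPKM, and the efflux pump gene Abcb1a at 12.1 ± 1.46 and 14.4 ± 2.84 (SD, n = 3 each). Hsd11b1, whose enzyme regenerates active glucocorticoid, was at 13.3, 6.48 and 5.84 FPKM in f/f 1 to 3 against 5.34, 7.33 and 2.69 in d/d 1 to 3. Hsd11b2, whose enzyme inactivates it, was at 5.45, 6.55 and 6.26 in f/f against 0.845, 9.69 and 3.90 in d/d. Its d/d libraries thus lay on both sides of the f/f range.

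Further progesterone-responsive genes of the uterus and oviduct were mostly lower where the label is d/d. Of 25 tested, 11 fell (44.0%) and 2 rose (8.00%), against 4.97% and 6.04% of all features, and the median log2 change was -0.78 against -0.01. The log2 change was negative for 17 of the 25. These lists, like the 9 genes, were drawn up with results of these data known. Ihh, the epithelial hedgehog ligand that carries the progesterone signal to stroma, was at 16.2, 47.7 and 51.7 FPKM in f/f 1 to 3 against 7.69, 4.27 and 9.65 in d/d 1 to 3 (5.35-fold lower; limma adjusted p = 0.0344). Its receptor gene Ptch1, itself a target of the pathway, went from 48.1 ± 6.84 to 14.6 ± 3.14 FPKM (SD, n = 3 each; 3.29-fold; log2 change -1.66, SE 0.18; limma adjusted p = 0.00583). The hedgehog effector Gli1 was 2.63-fold lower (limma adjusted p = 0.0243). Gli2 was at 7.74 ± 1.40 and 9.71 ± 2.11 FPKM and Nr2f2, the stromal nuclear receptor downstream of the ligand, at 106 ± 9.98 and 107 ± 21.04, and neither passed the threshold.

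The largest fall on the log2 scale among the progesterone list's called genes was that of Prap1, an epithelial secreted protein. It was at 8.87, 24.1 and 31.4 FPKM in f/f 1 to 3 against 1.16, 2.35 and 0.668 in d/d 1 to 3, 15.4-fold lower (log2 change -3.12, SE 0.47; limma adjusted p = 0.0132), and 23.4-fold lower without d/d 2. Cyp26a1, which degrades retinoic acid, went from 14.9 ± 3.82 to 3.40 ± 1.07 FPKM (4.38-fold; limma adjusted p = 0.0108). Hdc, the enzyme that makes histamine, went from 350 ± 92.5 to 104 ± 15.4 (3.36-fold; limma adjusted p = 0.0101). Errfi1, an inhibitor of epidermal growth factor receptor signalling, went from 183 ± 29.1 to 60.0 ± 12.4 (3.05-fold; limma adjusted p = 0.00746). Calca, Adamts1 and Klf9 fell as well, by 2.87-fold, 2.499-fold and 1.40-fold. Foxo1 (1.63-fold) and Cebpb (1.55-fold), transcription factors of stromal differentiation, rose. Acod1, which makes itaconate, was at 1.33, 18.9 and 16.4 FPKM in f/f against 0.196, 1.02 and 0.200 in d/d, and missed the threshold (limma adjusted p = 0.0776). Its d/d mean was 0.471 FPKM, so Acod1 passed the filter on low values only through its f/f level. That limits what its p-value can show.

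The calls in this list depended on single libraries, as did the calls over all features given above. Cyp26a1, Hdc, Ptch1 and Errfi1 were called in each of the 6 fits that left out 1 library, and the other 9 called genes were lost in at least 1 of them, each without f/f 2. The list had 13 calls in all, against 4 without f/f 2, 6 without f/f 3, 8 without d/d 1, 7 without d/d 2, 5 without d/d 3 and 15 without f/f 1. Ihh, Prap1, Gli1, Acod1, Hdc, Errfi1, Ptch1, Calca and Adamts1 were lowest of the f/f libraries in f/f 1, as were Lrp2, Fkbp5, Zbtb16 and Hif3a. Cyp26a1 and Klf9, which fell as well, were highest there.

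Other glucocorticoid-responsive genes gave a like count. Of 28 tested, 11 fell (39.3%) and 2 rose (7.14%), against 4.97% and 6.04% of all features. The median log2 change was -0.52, and the log2 change was negative for 20 of the 28. This list too was drawn up with results of these data known. The genes Errfi1, Klf9 and Cebpb stand in both lists, and over the 50 genes tested in either list 20 fell. Fam107a, an actin-binding protein induced by glucocorticoid, was at 66.1, 62.1 and 57.0 FPKM in f/f 1 to 3 against 17.5, 17.6 and 23.0 in d/d 1 to 3 (3.19-fold lower; log2 change -1.63, SE 0.13; limma adjusted p = 0.00374). Rasd1, a dexamethasone-induced Ras protein, went from 47.2 ± 10.6 to 12.7 ± 2.85 FPKM (SD, n = 3 each; 3.73-fold; limma adjusted p = 0.00856). Glul, the glutamine synthetase gene, went from 591 ± 156 to 188 ± 18.2 (3.13-fold; limma adjusted p = 0.0101). The metallothionein genes Mt1 and Mt2, which metals induce as well, were 4.08-fold and 6.57-fold lower (limma adjusted p = 0.0391 and 0.0393). Both were lowest of the f/f libraries in f/f 1, with Mt2 at 213, 997 and 848 FPKM in f/f 1 to 3 against 95.1, 101 and 117 in d/d 1 to 3.

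Further falls in this list were those of Sult1a1, a steroid and phenol sulfotransferase (3.81-fold), Cdkn1c, a cell cycle inhibitor (2.98-fold), Klf15 (2.06-fold) and Dusp1, a phosphatase that ends stress kinase signals (1.94-fold). Lcn2, an iron-binding acute phase protein, went the other way, from 71.7 ± 13.4 to 513 ± 250 FPKM (SD, n = 3 each; 7.15-fold higher; limma adjusted p = 0.0106). Some widely used glucocorticoid readouts did not pass the threshold. Per1 was at 17.8 ± 1.85 and 13.4 ± 2.74 FPKM (limma adjusted p = 0.154), Nfkbia at 84.5 ± 5.94 and 97.9 ± 8.35 (limma adjusted p = 0.249), and Ddit4 at 29.0 ± 4.73 and 35.7 ± 3.97 (limma adjusted p = 0.234). Txnip was 1.46-fold lower (limma adjusted p = 0.0541) and Rgs2 2.87-fold lower (limma adjusted p = 0.0576), both without overlap. Like Mt1 and Mt2, the genes Rasd1, Glul, Errfi1, Sult1a1, Cdkn1c, Klf15 and Rgs2 were lowest of the f/f libraries in f/f 1. Fam107a, Klf9 and Txnip were highest there, and Dusp1 lay between. Errfi1, Glul, Rasd1, Fam107a and Lcn2 were called in each of the 6 fits that left out 1 library. The other 8 were lost in at least 1 of these fits, each without f/f 2. There were 13 calls in all, against 5 without f/f 2, 6 without f/f 3, 9 without d/d 1, 5 without d/d 2 and 5 without d/d 3.

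**Figure D3:**
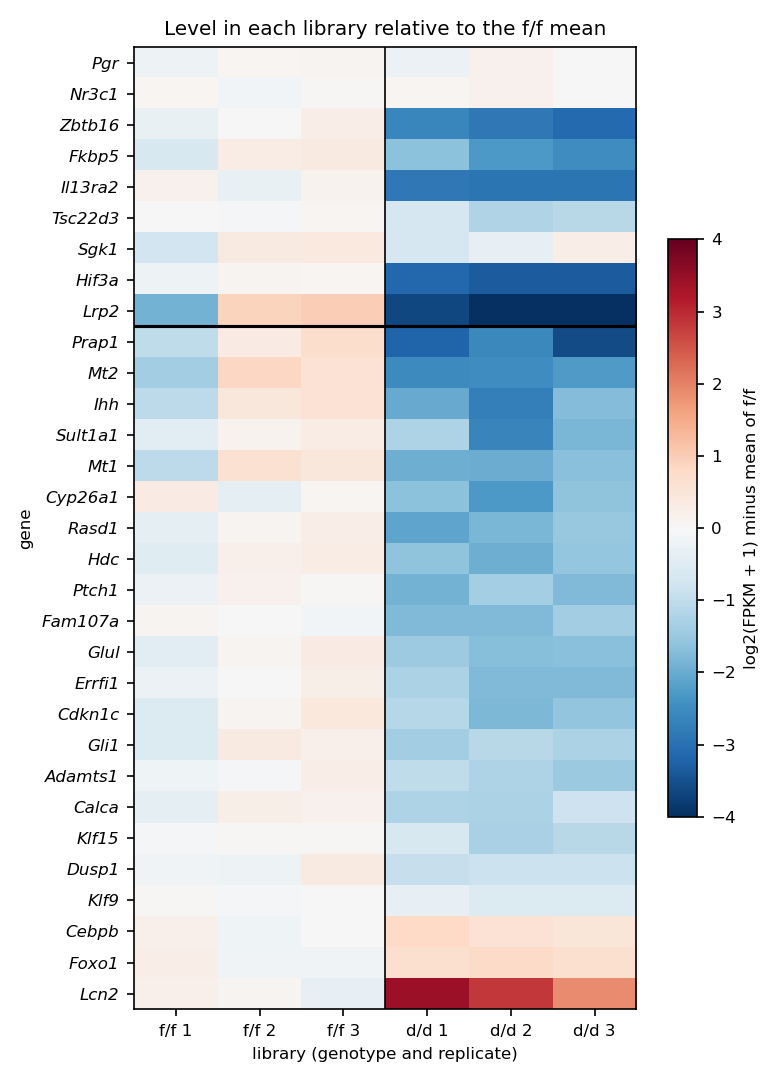
Level of the 9 genes (above the thick line) and of the called genes of both target lists that are reported here in each library, as log2(FPKM + 1) minus the f/f mean of the same quantity. Colours end at 4 in either direction. Most listed genes are lower in the 3 d/d libraries, and Lcn2, Foxo1 and Cebpb are higher. Library f/f 1 is paler or blue for Lrp2, Fkbp5, Sgk1, Mt1, Mt2, Ihh and Prap1, among others.

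Among promoters of these lists, the looser palindrome GNACANNNTGTNC, which includes the full element, was in windows of 3 of 42 genes that had one, against 0.537% of all 27025 symbols. No full match of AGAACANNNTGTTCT was among the 42 (0 genes). The 6-base arm AGAACA (or TGTTCT) was in windows of 6 of the 42, against 21.3% of all symbols. The 3 genes with the looser palindrome were Fam107a and Mt1, which fell, and Txnip, which missed the threshold. Their matches are shown in capitals within 61 bases of RefSeq sequence (GRCm38.p6), 5′ to 3′ in the direction of the gene. These are the listed genes that match the looser palindrome, and each site departs from the full element at more than 1 base. The stretches are chr14:8309861-8309921 on the minus strand, chr8:94178971-94179031 on the plus strand and chr3:96557761-96557821 on the plus strand.
Fam107a: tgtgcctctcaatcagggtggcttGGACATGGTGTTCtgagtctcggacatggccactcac
Mt1: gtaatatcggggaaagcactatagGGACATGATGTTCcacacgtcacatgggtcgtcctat
Txnip: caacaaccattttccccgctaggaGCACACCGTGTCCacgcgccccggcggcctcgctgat
Ptch1, Hdc and Glul, which fell by more than 3-fold, had no match to the looser palindrome in the windows searched, and nothing about receptor binding follows from that.

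**Figure D4:**
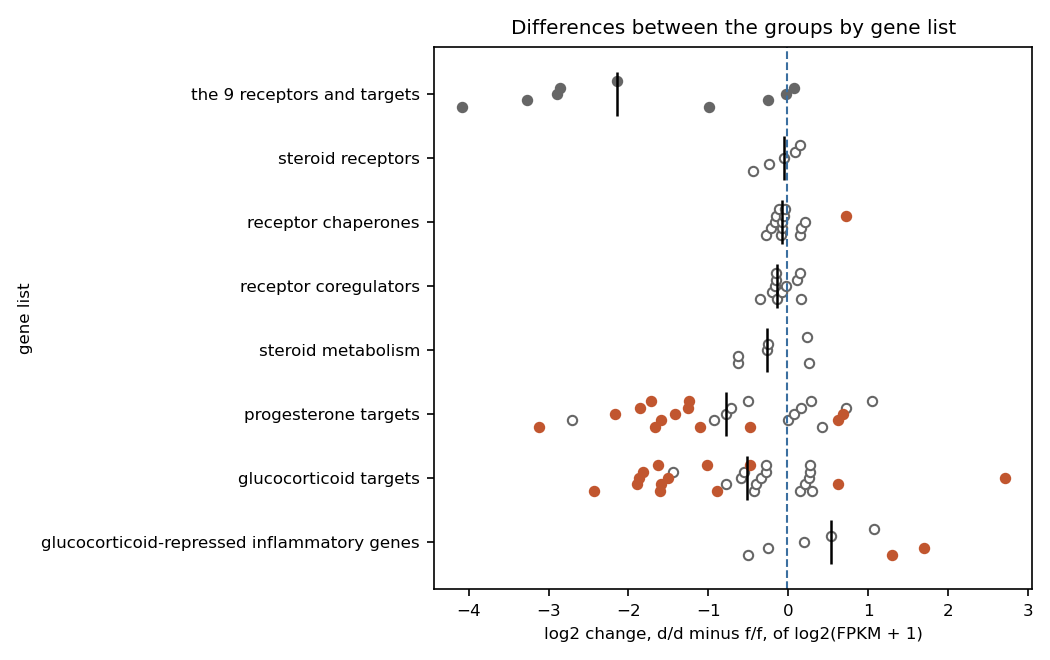
Log2 change, d/d minus f/f, of each tested gene by list: filled orange points passed the threshold, open points did not, and black ticks are list medians. The 9 genes are in grey because they were chosen with this contrast known, and the dashed line is the median of all features tested (-0.01).

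Inflammatory genes that glucocorticoids hold down were few and low in these libraries. Of 7 tested, 2 rose (28.6%, against 6.04% of all features) and 0 fell (median log2 change 0.53). The log2 change was negative for 2 of the 7, Ptgs2 (-0.51) and Mmp9 (-0.25), neither of them called. Calls in so short a list are not read as a result. The chemokine gene Ccl2 rose from 0.622, 1.03 and 0.535 FPKM in f/f 1 to 3 to 5.89, 5.01 and 3.14 in d/d 1 to 3 (6.41-fold; limma adjusted p = 0.0128), a call lost without d/d 2. Its f/f mean was 0.730 FPKM, so Ccl2 passed the filter on low values only through its d/d level, which limits what its p-value can show. Vcam1, a leukocyte adhesion molecule, rose 2.82-fold (limma adjusted p = 0.0484), a call kept without f/f 1 and lost without any of the other 5 libraries. Il6 went the other way, at 0.644, 2.24 and 2.18 FPKM in f/f against 0, 0.302 and 0 in d/d, and was under the filter. The macrophage markers given above rose with these genes (6 of 6), and their part in the levels of Ccl2, Vcam1 and Lcn2 was not tested.

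Of 6 tested genes that work beside Il13ra2, 1 rose (16.7%, against 6.04% of all features) and 0 fell (median log2 change 0.30). A single call in so short a list is not read as a result. The cytokine genes Il13 and Il4 were listed at 0 in each library. Il13ra1, the signalling receptor for the same ligand, rose from 14.05 ± 4.74 to 26.8 ± 3.74 FPKM (SD, n = 3 each; 1.91-fold; limma adjusted p = 0.0487), and kept the call without f/f 1 alone of the 6 libraries left out in turn. The kinase gene Jak1 was at 63.0 ± 6.67 and 57.4 ± 2.24 FPKM and Stat6, the transcription factor of the pathway, at 29.0 ± 2.71 and 30.7 ± 2.46. Il4ra was at 24.8 ± 4.52 and 35.7 ± 6.20 (limma adjusted p = 0.119) and Il2rg, which macrophages and lymphocytes carry, at 7.88 ± 0.341 and 16.9 ± 6.03 (limma adjusted p = 0.0613).

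Of 8 tested partners and ligands of Lrp2, 1 rose and 1 fell (12.5% each; median log2 change -0.29). The shares over all features were 6.04% and 4.97%, and nothing is read from so few genes. Clu, which encodes the ligand clusterin, rose from 251, 95.8 and 135 FPKM in f/f 1 to 3 to 439, 871 and 503 in d/d 1 to 3 (3.76-fold; limma adjusted p = 0.0287), a call kept without f/f 1 and lost without any other single library. Myo6, the motor that moves endocytic vesicles, fell from 51.8 ± 1.76 to 36.4 ± 3.05 (1.42-fold; limma adjusted p = 0.0263), a call lost without f/f 2, f/f 3, d/d 1 or d/d 2. Lrpap1, the chaperone that Lrp2 needs for folding, was 1.34-fold lower without overlap (limma adjusted p = 0.0534), and the adaptor gene Dab2 was at 28.6 ± 5.31 and 34.2 ± 1.56 FPKM. Cubn, whose product forms a receptor complex with megalin in the kidney, was at 0.068 FPKM or less in each library.

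Around Sgk1, 2 of 10 tested genes fell (20%) and 0 rose (median log2 change -0.17). Among all features 4.97% fell and 6.04% rose, and these 2 calls are not read as a result. Pdpk1, the kinase that activates Sgk1, went from 18.5 ± 0.891 to 11.9 ± 0.707 FPKM (SD, n = 3 each; 1.55-fold; limma adjusted p = 0.0183), a call kept without f/f 1 and lost without any other single library. Nedd4, a ubiquitin ligase related to the Sgk1 substrate Nedd4l, fell 1.38-fold (limma adjusted p = 0.0420), a call lost in each of the 6 omissions. The sodium channel subunit genes Scnn1a and Scnn1b were at 3.74 ± 1.18 and 4.33 ± 0.936 and at 1.93 ± 0.852 and 2.201 ± 1.07 FPKM, with overlapping groups.

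Of 14 genes of the hypoxia-inducible factor system, 2 rose (14.3%) and 1 fell (7.14%), with a median log2 change of 0.01. Among all features 6.04% rose and 4.97% fell, so these few calls are not read as a result. Car9, a hypoxia-induced carbonic anhydrase, rose from 2.08 ± 0.228 to 6.23 ± 1.94 FPKM (SD, n = 3 each; 3.00-fold; limma adjusted p = 0.0206), a call lost without f/f 2, f/f 3 or d/d 3. Arnt, the common partner of the oxygen-regulated subunits, fell 1.46-fold (limma adjusted p = 0.0231), a call kept without f/f 1 or d/d 2 and lost without any of the other 4 libraries. Egln1, an oxygen sensor, rose 1.38-fold (limma adjusted p = 0.0458), a call lost in each of the 6 omissions. The genes of the other oxygen-regulated subunits did not pass the threshold. Hif1a was at 60.4, 120 and 121 FPKM in f/f against 46.7, 50.6 and 62.3 in d/d (limma adjusted p = 0.101), and Epas1 at 51.4 ± 3.36 and 52.9 ± 1.80.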

How the data were processed

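RNA-seq values of 6 whole oviduct libraries (3 f/f, 3 d/d) were used as deposited. The authors deposited 1 value per Ensembl gene and library, read here as FPKM. That unit is inferred from decimals with unequal library totals and from Cufflinks 2.2.1, named with HISAT2 2.2.1, mm9 and mm10 per the submitters' processing notes. No source used here gives the annotation, the filters or the strand setting, so antisense and overlapping genes cannot be told apart. Of 55483 features, 55137 were in GENCODE M21, used for coordinates (GRCm38). No pair of libraries was identical (0 pairs). Rows sharing a symbol were added up, features under a mean of 1 FPKM were left out, and log2(FPKM + 1) was fitted with limma 3.58.1 in R 4.3.3 (genotype only, eBayes with trend, two-sided, Benjamini-Hochberg). The fit was tested on simulated data. Folds are ratios of mean FPKM. Log2 changes understate the change of low genes. Depth was estimated from single-transcript genes over 1500 nt with FPKM under 0.1, of which 38.0 to 43.6% lay on the common step within a band 2% wide, which depends on a length offset of 270 nt.

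The members and lists were chosen with earlier results of these data known. Named genes were the 9 members, Mettl3, the steroid receptors, up to 4 called genes of each list by size of change, the 2 most abundant where none passed, and the 2 most abundant markers of each cell type. Further genes of the lists were named after their values were seen, and some genes that the rule names are not reported here. The alternatives were other pseudocounts, filters and scalings, a replicate block, and omission of libraries.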

Additional observations from a re-analysis of the deposited data

How the results depend on the processing

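With no filter on low values 1107 features passed the threshold (1701 in the reported fit), and so did 5 of the 9 genes (6), 8 progesterone-responsive genes (13), 9 glucocorticoid-responsive genes (13), 1 glucocorticoid-repressed gene (2), 0 genes of the interleukin 13 system (1), and 1 each of the Lrp2 partners (2), the Sgk1 pathway (2) and the hypoxia-inducible factor system (3). Rescaling to protein-coding nuclear genes left 1 glucocorticoid-repressed gene and 0 of the interleukin 13 system. Without f/f 1 and d/d 1 together, 1 steroid receptor gene, Pgrmc2, was called, 17 progesterone-responsive genes and 0 genes of the Sgk1 pathway. Omitting single libraries gave 308 to 1795 features, 3 to 6 of the 9 genes, 0 to 1 steroid receptors, 0 to 1 chaperones, 4 to 15 progesterone-responsive and 5 to 13 glucocorticoid-responsive genes, 0 to 2 glucocorticoid-repressed genes, 0 to 1 of the interleukin 13 system, 0 to 2 Lrp2 partners, 0 to 1 of the Sgk1 pathway and 0 to 3 of the hypoxia-inducible factor system, with a Mettl3 log2 change of 0.66 to 0.80. For named genes outside the 9, 473 refitted values kept their direction and side of the threshold, 163 fell below it, 14 passed it, and 0 changed direction while called. The cause of these shifts was not tested, beyond the loss of samples or the larger number of features tested.

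Deviations of same-numbered libraries from their group means correlated at -0.22, -0.06 and 0.003 across genes. Differently numbered pairs ranged from -0.28 (f/f 3 with d/d 2) to 0.28 (f/f 1 with d/d 2). Deviations within a group are tied to each other, so these values neither show nor exclude a pairing by replicate number. With the replicate block, 276 features were called, 3 of the 9 genes, 0 chaperones, 2 progesterone-responsive and 3 glucocorticoid-responsive genes, 0 glucocorticoid-repressed genes, and 0 each of the interleukin 13 system, Lrp2 partners, Sgk1 pathway and hypoxia-inducible factor system. The Mettl3 log2 change under the block was 0.75 (limma adjusted p = 0.0559). Depth limits the levels of Il13ra2 and Hif3a in all d/d libraries and of Lrp2 in d/d 2 and d/d 3. These stand at about 28 fragments or fewer at the longest transcript of each gene.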

Other observations

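Relatives of the responsive genes were measured alongside. Of 15 tested paralogs, 0 rose and 0 fell by limma, against 6.04% and 4.97% of all features. Unadjusted p was under 0.05 for 0 of them (median log2 change -0.002). Tsc22d1, the most abundant, was at 396 ± 23.1 FPKM in f/f against 360 ± 51.5 in d/d, and Fkbp1a, which binds the drug FK506, at 166 ± 31.4 and 168 ± 7.12 (SD, n = 3 each).

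The features most like Zbtb16 over the 6 libraries, by Pearson r of log2(FPKM + 1), were Efemp1, an extracellular matrix protein (r = 0.999), Hoxaas2 (r = 0.999) and Cped1 (r = 0.998). Efemp1 was at 95.7, 111 and 131 FPKM in f/f 1 to 3 against 23.0, 19.0 and 18.3 in d/d 1 to 3. Those most like Fkbp5 were Specc1l (r = 0.999), Hs3st1, a heparan sulfate sulfotransferase (r = 0.999), and Lgi1 (r = 0.996). Hs3st1 was at 27.7, 42.7 and 41.1 FPKM in f/f against 17.2, 13.3 and 11.9 in d/d. Those most like Il13ra2 were Reck, an inhibitor of matrix metalloproteinases (r = 0.997), Ccdc82 (r = 0.997) and Ddx5, an RNA helicase (r = 0.997). Among 13214 features compared, 335 to 370 had an r above 0.95 with each of these genes. The 6 points are 2 separate groups and share the library differences, so these values describe likeness and carry no test.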
